A study of Mus musculus with 2 samples.

Results

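The cyclin-dependent kinase (CDK) inhibitor genes comprise Cdkn1a, Cdkn1b, Cdkn1c, Cdkn2a, Cdkn2b, Cdkn2c and Cdkn2d. They were taken by symbol from the features of 2 single-cell RNA libraries of the fetal mouse ovary, and these 7 genes of the 27998 features all had UMIs (unique molecular identifiers, each standing for 1 captured transcript) in both libraries. The study asked whether loss of the glucocorticoid receptor (GR, encoded by Nr3c1) alters the transcriptome of female germ cells and of the ovarian soma at E15.5. The KO library came from 2 pooled female embryos homozygous for a GR deletion, and the WT library from 4 pooled wild-type female embryos. The deletion allele was derived from Nr3c1tm1.1Jda, in which exon 3 is floxed, through a β-actin Cre line, so the deletion was constitutive and present in every cell type. Embryos came from crosses between heterozygotes, and both groups carried Tg(Pou5f1-EGFP)2Mnn, whose GFP marks germ cells. GFP-positive germ cells and GFP-negative somatic cells were sorted and recombined at 60:40 before capture, so the proportion of germ to somatic cells was set by the mixing. Each genotype was 1 library, so no difference below has a replicate check, no p-value is given, and genotype cannot be told apart from the pool of embryos, its sort and its capture.

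CDK inhibitors hold cells out of the cycle by binding the kinases that drive it. The CIP/KIP proteins, p21 (Cdkn1a), p27 (Cdkn1b) and p57 (Cdkn1c, an imprinted gene expressed from the maternal allele), bind a broad range of cyclin-CDK complexes. The INK4 proteins, p16INK4a (Cdkn2a), p15 (Cdkn2b), p18 (Cdkn2c) and p19 (Cdkn2d), bind CDK4 and CDK6 and keep them from D-type cyclins. Cdkn2a also encodes p19ARF in another reading frame, which restrains MDM2 and so stabilises p53. In the fetal ovary, pregranulosa cells are known to leave the cycle around the germ cells, while the germ cells stop dividing by mitosis as they enter meiotic prophase under STRA8.

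Cdkn2a and Cdkn2b lie side by side on chromosome 4 of GRCm38, at chr4:89274471-89294653 and chr4:89306299-89311039, both on the minus strand. Cdkn2a has 2 coding transcripts with 2 coding starts that share their 3′ part, so 3′ UMI counts cannot separate p16INK4a from p19ARF. Start regions from RefSeq on GRCm38.p6, from 250 bases before to 50 bases after a transcript start, are shown for both Cdkn2a starts, for Cdkn2b as its neighbour and for Cdkn1a as the classical p53 target. Capitals mark the letters TTTNNCGC (E2F) in the Cdkn2a windows and a pair of CATG separated by 6 bases (the core of a p53 element) in the Cdkn1a window, with both strands searched.
Cdkn2a, chr4:89282143-89282442, minus strand: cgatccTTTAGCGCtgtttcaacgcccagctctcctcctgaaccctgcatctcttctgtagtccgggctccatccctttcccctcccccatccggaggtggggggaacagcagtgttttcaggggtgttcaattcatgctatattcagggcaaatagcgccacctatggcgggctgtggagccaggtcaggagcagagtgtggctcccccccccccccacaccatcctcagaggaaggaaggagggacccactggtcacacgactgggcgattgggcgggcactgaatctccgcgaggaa
Cdkn2a, chr4:89294570-89294869, minus strand: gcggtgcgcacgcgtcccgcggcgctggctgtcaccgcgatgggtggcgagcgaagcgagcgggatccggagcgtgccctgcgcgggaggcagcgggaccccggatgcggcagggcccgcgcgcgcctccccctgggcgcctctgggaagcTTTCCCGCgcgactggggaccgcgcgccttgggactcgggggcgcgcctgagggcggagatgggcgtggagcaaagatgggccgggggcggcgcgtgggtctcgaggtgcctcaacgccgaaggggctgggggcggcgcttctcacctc
Cdkn2b, chr4:89310983-89311282, minus strand: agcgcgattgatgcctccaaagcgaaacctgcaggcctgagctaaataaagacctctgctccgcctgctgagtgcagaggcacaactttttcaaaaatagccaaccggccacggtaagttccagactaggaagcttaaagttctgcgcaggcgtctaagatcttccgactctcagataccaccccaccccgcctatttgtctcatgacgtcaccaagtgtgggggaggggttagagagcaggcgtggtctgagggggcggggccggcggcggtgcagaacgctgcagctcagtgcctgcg
Cdkn1a, chr17:29090729-29091028, plus strand: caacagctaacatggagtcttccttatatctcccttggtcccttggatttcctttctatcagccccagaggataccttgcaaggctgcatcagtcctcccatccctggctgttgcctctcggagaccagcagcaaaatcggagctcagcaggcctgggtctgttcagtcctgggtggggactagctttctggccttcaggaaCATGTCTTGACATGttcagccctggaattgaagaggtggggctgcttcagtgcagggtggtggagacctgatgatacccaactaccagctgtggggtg
The E2F letters were found in both Cdkn2a windows and in none of the other members' windows, against 5.20% of 32544 start windows of all genes. The p53 pair was found only in this Cdkn1a window among the members, against 0.624% of all windows. The full glucocorticoid response element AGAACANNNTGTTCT was in no member window, against 0.00922% of all windows. Its single-arm form AGAACA was in 1 Cdkn2c window, against 18.9%. These matches describe the letters of the windows. No start window was matched for Cdkn1c, which lies at chr7:143458339-143461050 on the minus strand and overlaps the antisense gene Gm44732.

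The libraries held 17829 (KO) and 11430 (WT) cell barcodes, of which 15502 and 9045 were kept. Kept KO cells were shallower, with a median of 10194.5 UMIs against 15685 in WT. Of all barcodes, 75 occurred in both libraries. Cells were clustered without the 7 members and the clusters were named from marker genes, and for the main classes between 7 and 9 markers of the class passed. This gave 10219 KO and 6805 WT germ-like cells, 2025 and 923 pregranulosa-like cells, 1883 and 824 stroma-like cells, and 1076 and 401 epithelium-like cells, beside smaller classes of immune-like, endothelia-like, erythroid-like and perivascular-like cells. Nr3c1 was lower in KO in each main class, at 11.6 against 71.8 CPM (UMIs per 1000000 UMIs of the class) in germ-like cells and 6.24 against 25.5 CPM in pregranulosa-like cells. A 3′ count can lie outside the deleted exon, so this checks the labels only in part. Scrublet called doublets in 6.60% of KO and 2.60% of WT cells. These cells were kept in the main values. The summed level of 8 germ markers in somatic classes was higher in KO, at 2052 against 1107 CPM in pregranulosa-like, 2949 against 1761 CPM in stroma-like and 1465 against 1098 CPM in epithelium-like cells, with 8 of 8 markers higher in each class. Intervals in brackets are exact 95% intervals for counts and cover counting error only, not the spread between animals.

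Cdkn1c was the most abundant CDK inhibitor of the ovarian soma. Its level was 2508 CPM in WT [2480 to 2536] and 2395 CPM in KO [2373 to 2417] pregranulosa-like cells, and 2328 and 2043 CPM in epithelium-like cells. Stroma-like cells held 514 CPM in WT and 431 CPM in KO, and their intervals overlapped those of endothelia-like cells at 491 and 429 CPM. Germ-like cells held 143 CPM in WT and 144 CPM in KO. The order was thus the same in the libraries from pregranulosa-like over epithelium-like to stroma-like cells, with pregranulosa-like cells above stroma-like cells by a log2 CPM ratio of 2.29 [2.24 to 2.33] in WT and 2.47 [2.44 to 2.51] in KO. The step from epithelium-like to pregranulosa-like cells was small, at 0.11 [0.08 to 0.13] in WT and 0.23 [0.21 to 0.25] in KO. A Cdkn1c UMI was found in 99.1% of pregranulosa-like cells in WT (Clopper-Pearson 95% interval 98.3 to 99.6%) and in 99.1% in KO. After thinning every cell to 3000 UMIs, 95.1% of pregranulosa-like cells kept a UMI in each library, against 16.0% (WT) and 18.4% (KO) of meiotic-entry-like germ cells, the group with the lowest level. Of all UMIs of the 7 members in pregranulosa-like cells, Cdkn1c took 87.6% in WT and 86.9% in KO, and in epithelium-like cells 93.7% and 92.6%. A 3′ UMI is counted once per molecule whatever the transcript's length, so such shares compare captured molecules.

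Among the somatic classes Cdkn1b was highest in pregranulosa-like cells. It stood at 257 CPM in WT [248 to 266] and 252 CPM in KO [245 to 259] there. Stroma-like cells held 48.4 and 39.1 CPM, and epithelium-like cells 37.5 and 40.4 CPM. Pregranulosa-like cells were above stroma-like cells by a log2 ratio of 2.41 [2.27 to 2.55] in WT and 2.69 [2.56 to 2.81] in KO, and above epithelium-like cells by 2.78 and 2.64. Epithelium-like cells were below stroma-like cells in WT (−0.37 [−0.59 to −0.15]) and close to them in KO (0.05 [−0.12 to 0.22]). The small perivascular-like, immune-like and endothelia-like classes had intervals that overlapped those of their neighbours in this order. Thinned to 3000 UMIs, 50.3% of WT [47.0 to 53.5] and 50.7% of KO pregranulosa-like cells had a Cdkn1b UMI, against 0.50% and 0.32% of recombination-like germ cells. Without thinning the shares were 86.7% and 79.6%, against 2.53% and 1.58%, at median depths of 12588 and 8493 UMIs in pregranulosa-like and 16387.5 and 10676.5 UMIs in recombination-like cells.

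Cdkn1a, the p53-responsive member, had another order. Immune-like cells were highest, at 319 CPM in WT [268 to 376] and 376 CPM in KO [326 to 431], although they were only 32 and 51 cells. Epithelium-like cells followed with 76.3 and 72.8 CPM, then pregranulosa-like cells with 55.9 and 54.7 CPM and stroma-like cells with 22.6 and 29.2 CPM. Epithelium-like cells exceeded pregranulosa-like cells by a log2 ratio of 0.45 [0.28 to 0.61] in WT, and the intervals of these 4 classes did not overlap in either library. Thinned to 3000 UMIs, 18.2% of WT and 15.9% of KO epithelium-like cells had a Cdkn1a UMI, against 1.09% and 0.908% of recombination-like germ cells. Without thinning the shares were 46.4% and 37.6%, against 5.88% and 3.28%, with medians of 16895 and 11267 UMIs in epithelium-like cells.

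**Figure D1:**
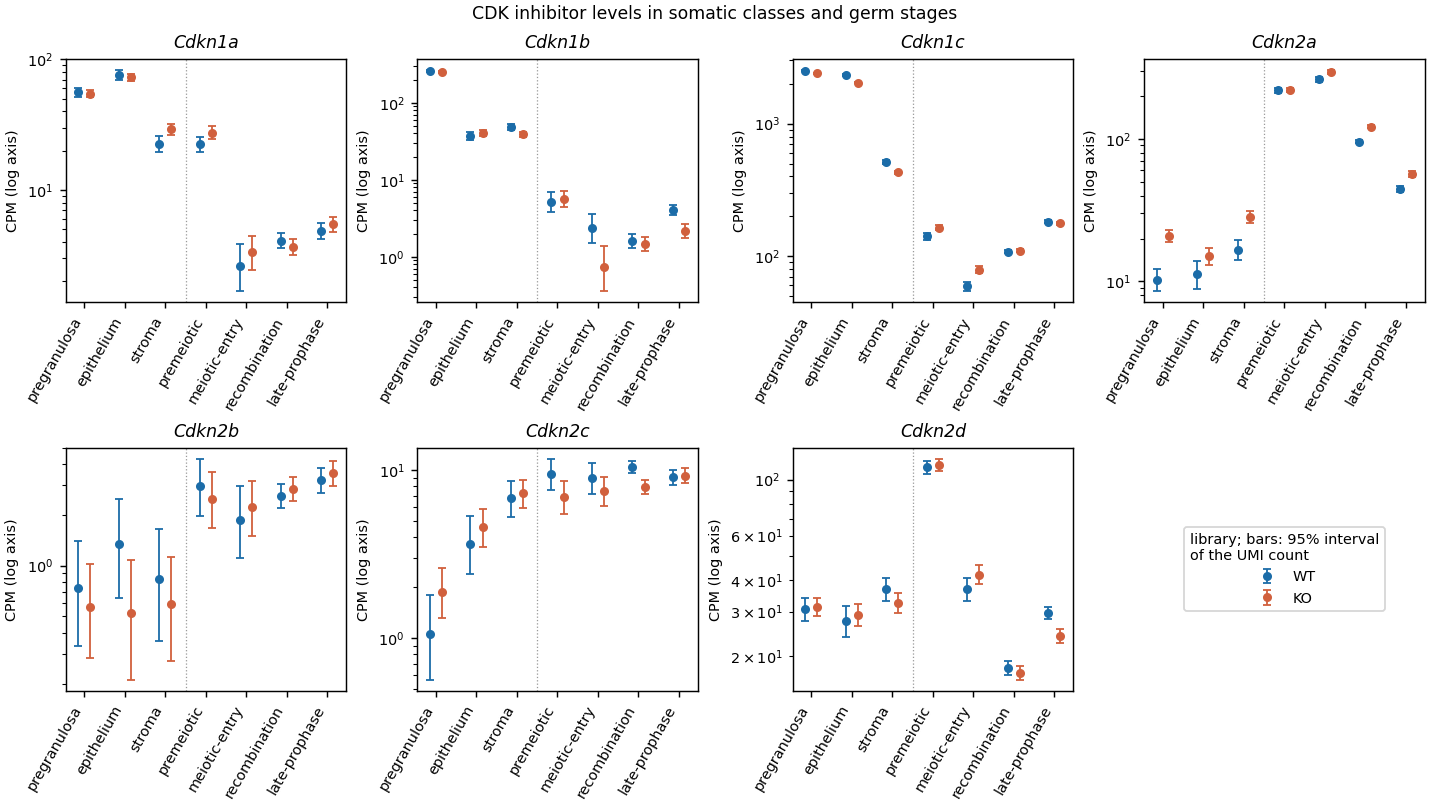
Levels of the 7 CDK inhibitor genes in CPM (log axis) in pregranulosa-like, epithelium-like and stroma-like cells and in the 4 germ stages, for the WT and KO libraries, with exact 95% Poisson intervals of the counts as bars. Cdkn1b and Cdkn1c are highest in pregranulosa-like cells (257 and 2508 CPM in WT), whereas Cdkn2a is highest at the meiotic-entry-like stage (260 CPM in WT) and Cdkn2d at the premeiotic-like stage (112 CPM in WT).

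Within the pregranulosa-like class the CIP/KIP members varied between clusters. At a finer resolution, a cluster led by Gstm6 (536 cells) held Cdkn1b at 360 CPM in WT and 358 CPM in KO and Cdkn1c at 961 and 894 CPM. The largest pregranulosa-like cluster (2117 cells) held Cdkn1b at 249 and 268 CPM and Cdkn1c at 3081 and 2943 CPM. The first of these clusters was therefore higher in Cdkn1b and lower in Cdkn1c in each library. It held more Foxl2, the granulosa transcription factor (10.3 against 2.43 CPM in WT), and less Lgr5, a WNT pathway receptor (9.04 against 128 CPM in WT). At the resolution used for the classes, a small cluster led by Lypd1 and Pax8 (80 cells) held Cdkn1a at 239 CPM in WT and 311 CPM in KO, against 49.1 and 48.7 CPM in the main pregranulosa-like cluster, together with less Cdkn1b (86.4 and 72.7 CPM) and less Cdkn1c (1450 and 1159 CPM).

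Against germ-like cells of the WT library, the members divided by family. A gene was counted as past the limit when it had at least 100 UMIs over both sides and an absolute log2 ratio of at least 1. In pregranulosa-like cells 6 of 7 members passed, where 58.3% of all genes with enough UMIs did. In stroma-like cells 5 of 7 passed (54.9% of all genes), and in epithelium-like cells 6 of 7 (57.5% of all genes). A member count of this size is thus not far from that of all genes. In each somatic class Cdkn1a, Cdkn1b and Cdkn1c were higher and Cdkn2a and Cdkn2b lower than in germ-like cells. Cdkn2c was lower in pregranulosa-like and epithelium-like cells only, and Cdkn2d passed the limit in no class. The largest difference was that of Cdkn1b in pregranulosa-like cells, at 6.05 [5.91 to 6.19]. The median over the 7 members was −0.02 in pregranulosa-like, 0.24 in stroma-like and −0.18 in epithelium-like cells, beside −0.12, −0.19 and −0.26 over all genes.

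The kinases and cyclins that these inhibitors bind differed between the same classes. Among the 4 CDKs, Cdk4, the INK4 target, was the highest against germ-like cells in each somatic class, at 359 against 39.8 CPM in pregranulosa-like cells. Among the 9 cyclins, Ccnd2, a D-type cyclin, was highest in each class, at 348 against 5.39 CPM in pregranulosa-like cells. Pregranulosa-like cells stood apart in the G2/M list, of which 18 of 18 tested genes were lower than in germ-like cells with a median log2 ratio of −3.14, beside −0.12 over all genes. In stroma-like cells 7 of 19 G2/M genes were higher and 3 lower (Aurkb highest, Bub1 lowest), and in epithelium-like cells 6 were higher and 4 lower. Of all genes, 54.9% and 57.5% passed in either direction in these classes, and 58.3% in pregranulosa-like cells. The G2/M counts of stroma-like and epithelium-like cells and the S-phase counts given next did not exceed these shares. Of 14 S-phase genes, 7 were lower and 1 higher in pregranulosa-like cells (Tyms highest, Cdc45 lowest), 5 higher and none lower in stroma-like cells, and 6 higher and 1 lower in epithelium-like cells. Of 10 pocket protein and E2F genes, 2 were higher and 5 lower in pregranulosa-like cells, with Rbl2 highest and E2f7 lowest. Among the p53 targets Btg2, an antiproliferative gene, was highest in each somatic class, at 195 against 4.80 CPM in pregranulosa-like cells. Myc headed the list of genes of CDK inhibitor turnover and repression in each class, at 8.64 against 0.0827 CPM in pregranulosa-like cells.

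Among INK4 members in the main somatic classes, Cdkn2d was the most abundant and the most even. It lay at 30.6 CPM in WT and 31.3 CPM in KO pregranulosa-like cells, 27.4 and 29.1 CPM in epithelium-like cells and 36.8 and 32.5 CPM in stroma-like cells. The level over all germ-like cells was 31.1 and 31.9 CPM, so that its log2 ratio of pregranulosa-like over germ-like cells was −0.02 in WT and −0.03 in KO. Cdkn2c was higher in stroma-like cells (6.77 and 7.26 CPM) than in pregranulosa-like cells (1.06 and 1.87 CPM), with epithelium-like cells between them at 3.65 and 4.57 CPM. Cdkn2b was near the limit of counting in the soma, with 8 to 10 UMIs per main somatic class in WT and 7 to 11 in KO, and no order among these classes was resolved.

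Cdkn2a in the somatic classes was near the level that the germ transcripts found there would carry. Its level was 10.3 CPM in WT and 20.9 CPM in KO pregranulosa-like cells, 16.7 and 28.1 CPM in stroma-like cells and 11.2 and 15.0 CPM in epithelium-like cells. The level of the 8 germ markers in WT pregranulosa-like cells was, at the median, 10.0% of that in germ-like cells, and Cdkn2a carried at that share would give 9.92 CPM. The same calculation gave 15.4 CPM for WT stroma-like and 9.66 CPM for WT epithelium-like cells, and 20.8, 29.7 and 15.0 CPM for the KO classes in that order. In cells with germ markers under 0.1% of their UMIs (838, 733 and 362 WT cells and 1717, 1515 and 927 KO cells of the pregranulosa-like, stroma-like and epithelium-like classes), Cdkn2a stood at 1.16, 2.52 and 1.94 CPM in WT and at 2.95, 2.74 and 2.57 CPM in KO. In the same pregranulosa-like cells Cdkn1b was at 280 CPM in WT and 291 CPM in KO and Cdkn1c at 2747 and 2732 CPM, so the level of these genes was kept in cells low in germ transcripts. A Cdkn2a UMI was present in 5.53% of WT and 8.89% of KO pregranulosa-like cells, and in 1.41% and 3.11% after thinning. Choosing cells low in germ markers lowers any transcript that goes with those markers, and the source of the somatic Cdkn2a was not tested.

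**Figure D2:**
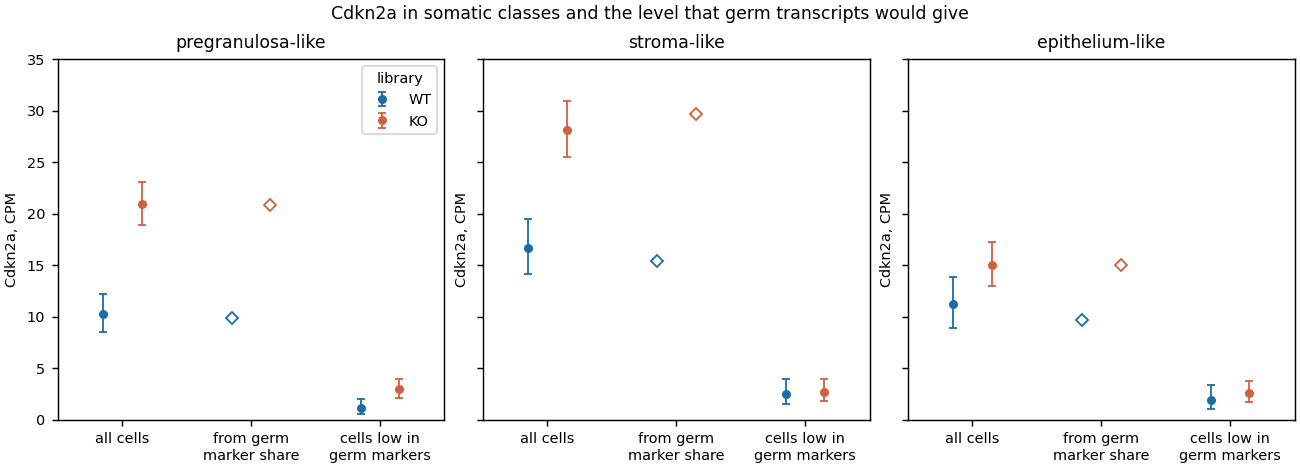
Cdkn2a in CPM in pregranulosa-like, stroma-like and epithelium-like cells of the WT and KO libraries, for all cells, as the level that the median share of 8 germ markers would carry over (open diamonds), and in cells with germ markers under 0.1% of UMIs; bars are exact 95% Poisson intervals. All-cell levels lie beside the diamonds (10.3 and 9.92 CPM in WT pregranulosa-like cells), and cells low in germ markers lie between 1.16 and 2.95 CPM.

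Cdkn2a and Cdkn2b were the INK4 members past the limit in germ-like cells against each main somatic class. The INK4 genes held 48.3% of all member UMIs in WT germ-like cells and 52.6% in KO, against 1.49% and 1.98% in pregranulosa-like cells. Germ-like cells were clustered again and grouped into 4 stages from stage markers. Premeiotic-like clusters passed 6 to 10 of 11 markers of their stage, and the meiotic-entry-like cluster 5 of 6. Support was weaker for the later stages, with 4 to 8 of 10 in recombination-like and 3 or 4 of 10 in late-prophase-like clusters. Premeiotic-like cells numbered 788 in KO and 437 in WT, meiotic-entry-like cells 876 and 420, recombination-like cells 5066 and 3400, and late-prophase-like cells 3352 and 2466. Another 137 and 82 cells were left unnamed, since 1 stage marker passed where 3 were needed. Their leading genes included the pregranulosa markers Fst and Kitl. The INK4 share was largest at the meiotic-entry-like stage, at 82.8% in WT and 80.6% in KO, and lowest at the late-prophase-like stage, at 31.1% and 33.7%. The names are approximate, as the meiotic-entry markers Stra8, Rec8 and Zglp1 were higher in premeiotic-like than in meiotic-entry-like cells in both libraries. In WT they stood at 1365 against 1137, 125 against 33.0 and 72.6 against 42.5 CPM. The other markers of that list, Meioc, Gm4969 and Ythdc2, were higher at the meiotic-entry-like stage than in premeiotic-like cells. The late-prophase markers Figla and Msh5 were higher in recombination-like than in late-prophase-like cells in both libraries. Tex11 was near equal, and the rest of the late-prophase list was higher in late-prophase-like cells. Of the recombination markers, Mei4, Hormad2 and Rad51ap2 were highest at the meiotic-entry-like stage, and Dmc1, Prdm9 and Meiob in recombination-like cells. Spo11 was highest in late-prophase-like cells, at 122 against 108 CPM in recombination-like cells in WT and 106 against 87.5 CPM in KO. Hormad1, Mei1 and Ccdc36 were highest at the meiotic-entry-like stage in one library and in recombination-like cells in the other.

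Cdkn2a was highest at the meiotic-entry-like stage. Its level there was 260 CPM in WT [250 to 271] and 293 CPM in KO [284 to 303]. It stood at 218 and 219 CPM in premeiotic-like cells, at 95.6 and 121 CPM in recombination-like cells and at 44.6 and 56.7 CPM in late-prophase-like cells. The intervals of neighbouring stages did not overlap in either library. Against all other germ-like cells the meiotic-entry-like stage was higher by a log2 ratio of 1.61 [1.55 to 1.68] in WT (260 against 85.2 CPM) and 1.44 [1.391 to 1.495] in KO (293 against 108 CPM). It accounted for 69.99% of all member UMIs at this stage in WT and 68.5% in KO. A UMI was found in 94.5% of WT [91.9 to 96.5] and 95.7% of KO meiotic-entry-like cells, against 41.5% and 34.0% of late-prophase-like cells. After thinning to 3000 UMIs the shares were 49.0% and 58.0% against 10.6% and 12.7%. The unthinned cells had medians of 23113 (WT) and 15511.5 (KO) UMIs at meiotic entry and 16634 and 10567 UMIs in late prophase.

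Cdkn2a did not track Stra8 cluster by cluster. Within the premeiotic-like stage, a cluster led by Cdx2, Dppa3 and Sox2 (118 cells) had Stra8 at 1018 CPM in WT and Cdkn2a at 74.2 CPM in WT and 106 CPM in KO, below every other cluster up to meiotic entry. The cluster led by Rec8 and Rhox5 (815 cells) had the most Stra8, at 1674 CPM in WT and 1664 CPM in KO, with Cdkn2a at 221 and 217 CPM. A cluster led by Tchh and Lin28a (292 cells) had the most Cdkn2a, at 281 and 322 CPM, with Stra8 at only 386 and 461 CPM. Among recombination-like clusters the one led by Tnip2 and Kcnq1ot1 (1838 cells) still held Cdkn2a at 180 and 217 CPM, while the clusters led by Pcdh17 and Nacad held 66.0 and 76.2 CPM in WT. The late-prophase-like cluster led by Sohlh1, an oocyte transcription factor, was lowest, at 41.1 CPM in WT and 43.8 CPM in KO.

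**Figure D3:**
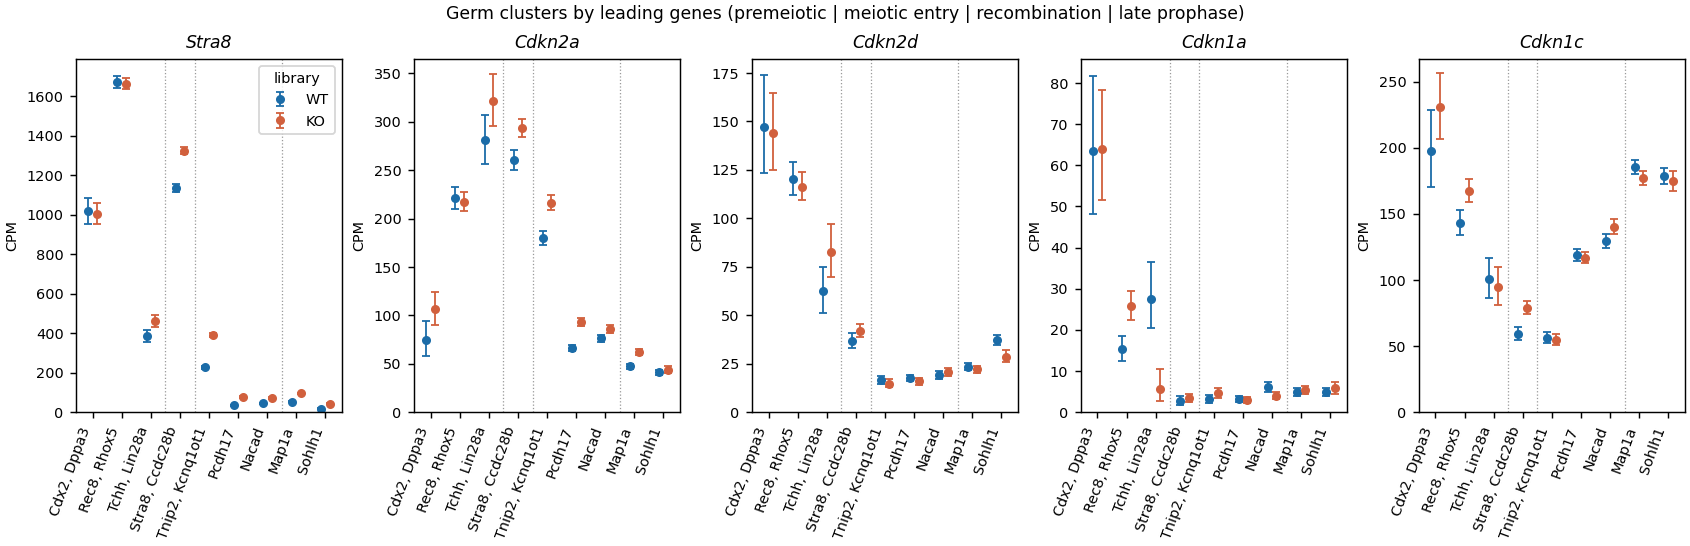
Stra8, Cdkn2a, Cdkn2d, Cdkn1a and Cdkn1c in CPM across the 9 named germ clusters, labelled by leading genes and separated by dotted lines into premeiotic-like, meiotic-entry-like, recombination-like and late-prophase-like stages, for WT and KO with exact 95% Poisson intervals. Stra8 peaks in the cluster led by Rec8 and Rhox5 (1674 CPM in WT), Cdkn2a in the cluster led by Tchh and Lin28a (281 CPM in WT), and Cdkn2d and Cdkn1a in the cluster led by Cdx2 and Dppa3 (147 and 63.4 CPM in WT).

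Cdkn2d was highest at the premeiotic-like stage. It stood at 112 CPM in WT and 115 CPM in KO premeiotic-like cells, 36.7 and 42.1 CPM at meiotic entry, 17.9 and 17.2 CPM in recombination-like cells and 29.5 and 24.0 CPM in late-prophase-like cells. The lowest stage was therefore the recombination-like stage in each library. A Cdkn2d UMI was found in 74.8% of WT and 71.4% of KO premeiotic-like cells (27.7% and 28.0% when thinned), against 24.4% and 16.3% of recombination-like cells (4.62% and 5.07% when thinned). Cdkn2c was nearly level across the stages, between 8.94 and 10.4 CPM in WT and between 6.87 and 9.26 CPM in KO, and Cdkn2b likewise lay between 1.87 and 3.23 CPM in WT and between 2.23 and 3.54 CPM in KO, with overlapping intervals between neighbouring stages for both genes.

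Of the CIP/KIP members in germ-like cells, Cdkn1c was abundant, with 48.4% of all member UMIs in WT and 44.3% in KO, while Cdkn1a and Cdkn1b were low at most stages. Cdkn1a stood at 22.4 CPM in WT and 27.5 CPM in KO premeiotic-like cells and at 2.60 and 3.35 CPM at meiotic entry, with 4.10 and 3.67 CPM in recombination-like and 4.85 and 5.47 CPM in late-prophase-like cells. Its level within the premeiotic-like stage was highest in the cluster led by Cdx2, Dppa3 and Sox2, at 63.4 and 63.9 CPM, where Trp53 was also higher than at meiotic entry (26.9 against 3.01 CPM in WT). Cdkn1c was lowest at meiotic entry, at 59.2 and 79.1 CPM, between 141 and 164 CPM in premeiotic-like and 108 and 110 CPM in recombination-like cells, and reached 182 and 176 CPM in late-prophase-like cells. Cdkn1b stayed under 6 CPM in each stage. Carried at the median share of 10 pregranulosa markers, it would be 1.83 (WT) and 1.72 (KO) CPM in recombination-like cells (measured 1.62 and 1.47). At meiotic entry it would be 1.52 and 1.16 CPM (measured 2.39 and 0.744). Premeiotic-like cells would get 1.68 and 2.57 CPM (measured 5.22 and 5.67). Late-prophase-like cells would get 1.48 and 1.65 CPM (measured 4.05 and 2.16). The part of somatic transcripts in these levels was not tested. The unnamed germ-like cluster held Cdkn1b at 69.0 CPM in WT and 73.0 CPM in KO and Cdkn1c at 706 and 798 CPM, beside doublet calls in 37.8% and 58.4% of its cells. The part of these cells in the germ-like level of Cdkn1b is shown by leaving them out, as given below for the comparison of genotypes.

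From stage to stage the limit was again an absolute log2 ratio of 1. From premeiotic-like to meiotic-entry-like cells in WT, 3 of 5 members with enough UMIs were lower and none higher, where 8.0% of all genes passed in either direction and 645 of those 679 genes were lower. These were Cdkn1a (−3.10), Cdkn2d (−1.61) and Cdkn1c (−1.25), and the KO values were −3.04, −1.45 and −1.06. Cdkn2a was higher by 0.26 [0.17 to 0.34] in WT and 0.42 in KO, short of the limit. From meiotic-entry-like to recombination-like cells, 2 of 7 were lower (15.0% of all genes), Cdkn2a (−1.45 in WT, −1.28 in KO) and Cdkn2d (−1.04 and −1.29). From recombination-like to late-prophase-like cells, 2 of 7 passed (12.1% of all genes). Cdkn2a was lower (−1.10 and −1.09) and Cdkn1b higher (1.33), and the KO value of Cdkn1b, 0.55, was under the limit. The recombination-like level of Cdkn1b was near that which somatic transcripts would carry, as given above. The median over members with enough UMIs was −1.25, 0.21 and 0.31 for the 3 steps, beside −0.10, 0.06 and 0.27 over all genes.

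Among the cell cycle lists, most cyclins and S-phase genes were also lower at the first of these steps. Of 8 tested cyclins, 6 were lower at meiotic entry and none higher, with a median log2 ratio of −1.20; Ccnd2 was lowest (2.91 against 19.3 CPM) and Ccne2 highest (337 against 270 CPM). Of 14 S-phase genes 10 were lower, with a median of −1.24, Tyms lowest and Slbp highest. Of 3 tested CDKs only Cdk4 was lower past the limit (19.6 against 44.2 CPM). Of 8 genes of CDK inhibitor turnover and repression 2 were lower, with Trp53 lowest (3.01 against 9.16 CPM) and Cbx7 highest, and of 7 p53 targets 2 were lower, with Phlda3 lowest (3.01 against 11.5 CPM) and Aen highest. None of 4 tested pocket protein and E2F genes passed, and of 18 G2/M genes 4 were lower, with Ccnb1 lowest and Bub1 highest and a median of −0.09, beside −0.10 over all genes. At the second step Ccnd1 was the lowest cyclin (3.66 against 26.8 CPM) and Cdk2 the highest CDK (11.3 against 4.89 CPM). At the last step 3 of 11 p53 targets were higher and none lower, Bax being highest (112 against 49.1 CPM), and 2 of 9 cyclins were higher, Ccna1 being highest. Of all genes, 12.1% passed at this last step. Most of these were higher, 1243 of 1442, and the median over all genes was 0.27.

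Between the genotypes the CDK inhibitors differed little in germ-like cells. With a limit of 0.5 on the absolute log2 ratio of KO over WT and at least 100 UMIs, 0 of 7 members passed in germ-like cells, where 7.79% of all genes did. With the unnamed cluster left out and the KO stages weighted as in WT, Cdkn1b did pass, as given below. No test was possible with 1 library per genotype. The largest ratio was that of Cdkn2a, at 0.37 [0.34 to 0.41], from 99.1 CPM in WT and 128 CPM in KO. Cdkn1b was lower in KO (−0.29 [−0.49 to −0.10]), Cdkn2c lower (−0.24 [−0.36 to −0.11]) and Cdkn1a higher (0.20 [0.06 to 0.35]), while Cdkn1c (0.01), Cdkn2b (0.10) and Cdkn2d (0.04) were near 0. The median over the members was 0.04, beside −0.05 over all genes.

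By stage, Cdkn2a was near equal in premeiotic-like cells (0.01 [−0.08 to 0.09]) and higher in KO at meiotic entry (0.17 [0.10 to 0.24]), in recombination-like cells (0.34 [0.29 to 0.39]) and in late-prophase-like cells (0.35 [0.26 to 0.44]). With the KO stage levels weighted by the WT share of UMIs per stage, the Cdkn2a ratio over the germ-like stages was 0.25. This weighting also leaves out the unnamed cluster in both libraries. With both changes Cdkn1b passed the limit of 0.5, at −0.52 (2.00 CPM in KO against 2.86 CPM in WT), and no other member passed. Stra8 was also higher in KO in recombination-like cells (153 against 83.1 CPM) and late-prophase-like cells (79.9 against 36.6 CPM). The part of stage differences within these groups in the Cdkn2a ratio was not tested. Cdkn1b in late-prophase-like cells was at 2.16 CPM in KO and 4.05 CPM in WT, a ratio of −0.91 [−1.30 to −0.52] from 85 and 177 UMIs. Without the unnamed cluster and with no weighting, its germ-like ratio was −0.50. The part of somatic transcripts in the Cdkn1b ratios was not tested. Cdkn1c at meiotic entry was higher in KO (0.42 [0.27 to 0.57]), and Cdkn2c in recombination-like cells lower (−0.39 [−0.57 to −0.21]).

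In the main somatic classes the single member past the limit of 0.5 was Cdkn2a. In pregranulosa-like cells 1 of 5 members with enough UMIs passed, where 6.72% of all genes did, and Cdkn2a was higher in KO at 1.03 [0.73 to 1.33]. In stroma-like cells 1 of 6 passed (6.73% of all genes), Cdkn2a at 0.76 [0.49 to 1.03]. In epithelium-like cells 0 of 5 passed (3.68% of all genes), with Cdkn2a at 0.42 [0.04 to 0.81]. The summed germ markers had log2 ratios of 0.89, 0.74 and 0.42 in the same classes, and doublet calls were 11.1% in KO against 4.12% in WT pregranulosa-like cells. In cells with germ markers under 0.1% of UMIs the Cdkn2a ratio was 1.35 [0.40 to 2.41] from 42 and 12 UMIs in pregranulosa-like cells, 0.12 [−0.78 to 1.05] in stroma-like cells and 0.41 [−0.62 to 1.53] in epithelium-like cells. Without called doublets it was −0.15 in pregranulosa-like, 0.43 in stroma-like and −0.25 in epithelium-like cells, so its direction in pregranulosa-like cells depended on which cells were kept. In some small classes Cdkn1c had larger ratios, at 1.64 [1.04 to 2.28] in immune-like cells (51 KO and 32 WT cells). The ratio was 0.94 [0.49 to 1.41] in erythroid-like (54 and 14 cells) and −0.71 [−1.11 to −0.31] in perivascular-like cells (58 and 16 cells). These classes are small, and the share of all genes past the limit was not computed for them. The part of transcripts from other classes in these ratios was not tested.

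The somatic CIP/KIP members were close between the genotypes. In pregranulosa-like cells Cdkn1a and Cdkn1b both had a ratio of −0.03 and Cdkn1c one of −0.07, each far under the limit. In epithelium-like cells Cdkn1a was at −0.07, Cdkn1b at 0.11 and Cdkn1c at −0.19. In stroma-like cells Cdkn1c (−0.25) and Cdkn1b (−0.31 [−0.49 to −0.13]) were lower in KO and Cdkn1a higher (0.37 [0.13 to 0.61]). In stroma-like cells low in germ markers Cdkn1a passed the limit, at 35.8 CPM in KO and 24.4 CPM in WT (0.55 [0.29 to 0.82]), and Cdkn2a did not. The median over members with enough UMIs was −0.03 in pregranulosa-like, −0.04 in stroma-like and 0.09 in epithelium-like cells, beside −0.02, 0.01 and 0.03 over all genes.

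**Figure D4:**
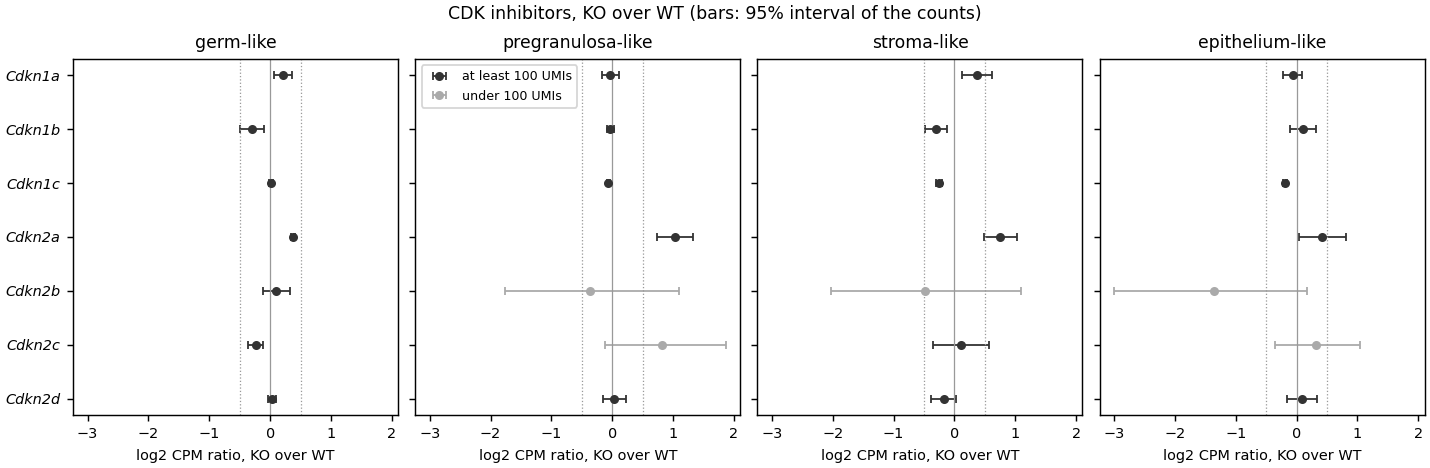
Log2 CPM ratio of KO over WT for the 7 CDK inhibitor genes in germ-like, pregranulosa-like, stroma-like and epithelium-like cells, with exact 95% intervals of the counts as bars, dotted lines at −0.5 and 0.5, and grey for genes with fewer than 100 UMIs. Cdkn2a is the only gene with enough UMIs past a dotted line, at 1.03 in pregranulosa-like and 0.76 in stroma-like cells.

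The cell cycle lists were compared between the genotypes in the same way. Of all genes, 7.79% passed in germ-like, 6.72% in pregranulosa-like, 6.73% in stroma-like and 3.68% in epithelium-like cells. In germ-like cells 1 p53 target, Eda2r, was lower (0.443 against 0.629 CPM), and no gene of the CDK, cyclin, pocket protein and E2F, turnover, S-phase or G2/M lists passed. Cyclins ranged there from −0.45 (Ccnb1) to 0.40 (Ccnd2). In pregranulosa-like cells 8 of 14 G2/M genes were higher in KO, with Cenpf highest (127 against 71.3 CPM). Their median was 0.58, beside −0.02 over all genes. The germ markers were higher in these cells too, as given above, and germ-like cells held more of the G2/M genes than pregranulosa-like cells; their part in the result was not tested. Cdk6 (11.96 against 25.8 CPM) was the lowest CDK and Btg2 (125 against 195 CPM) the lowest p53 target in KO pregranulosa-like cells, while Ccne2 (38.4 against 24.3 CPM) was the highest cyclin and Cdc45 (6.40 against 3.83 CPM) the highest S-phase gene. In stroma-like cells 0 of 19 G2/M genes passed, and Ccnd1 (7.20 against 12.5 CPM), Myc (7.53 against 11.4 CPM) and Btg2 (58.0 against 85.3 CPM) were lower and Zmat3 (6.73 against 4.58 CPM) higher. In epithelium-like cells no gene of the 7 lists passed.

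Somatic cells were then divided by G2/M transcripts, each cell being thinned to 3000 UMIs, into cells with 3 or more UMIs of the G2/M list and cells with 0. This is a range of a score and not a cell type, and a G2/M UMI alone does not show that a cell was dividing. The share with 3 or more was 28.5% in WT and 31.1% in KO stroma-like cells, 27.7% and 30.1% in epithelium-like cells and 7.04% and 9.83% in pregranulosa-like cells, whereas 93.8% and 94.5% of germ-like cells reached it. Somatic cells with 3 or more held far more germ marker transcripts (3597 against 349 CPM in WT stroma-like cells and 6512 against 240 CPM in WT pregranulosa-like cells), so only cells with germ markers under 0.1% of UMIs are compared here. Of pregranulosa-like cells this left 6 in WT and 8 in KO with 3 or more, too few to describe.

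Cdkn2c and Cdkn2d were higher, and Cdkn1c lower, in stroma-like cells with G2/M transcripts. In WT (165 against 369 cells) Cdkn2c stood at 24.1 against 0.844 CPM, 49 against 3 UMIs, a log2 ratio of 4.83 [3.20 to 7.16]. In KO (309 against 766 cells) it stood at 27.6 against 0.430 CPM, 68 against 2 UMIs, a ratio of 6.01 [4.10 to 9.08]. Cdkn2d was at 91.9 against 18.0 CPM in WT (2.35 [1.94 to 2.78]) and at 92.6 against 19.1 CPM in KO (2.28 [1.92 to 2.65]). The intervals of both INK4 genes lay above 1 in each library. Cdkn1c was lower in the cells with G2/M transcripts, at 435 against 631 CPM in WT (−0.54 [−0.65 to −0.42]) and 368 against 583 CPM in KO (−0.66 [−0.77 to −0.56]). Cdkn1a was lower in KO (−0.88 [−1.35 to −0.44]) and its WT interval included 0 (−0.40 [−0.98 to 0.16]). Cdkn1b was higher in KO (0.52 [0.23 to 0.81]), with a WT interval that touched 0 (0.32 [−0.0029 to 0.64]). Over all stroma-like cells of KO, including those with germ transcripts, it was lower (−0.44 [−0.71 to −0.18]).

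Epithelium-like cells gave the same order for Cdkn2c and Cdkn2d. In WT (88 against 195 cells) Cdkn2c had 22 UMIs against 0, which is 12.4-fold over a floor set at 3 UMIs. The exact interval of its log2 ratio starts at 3.21. In KO (221 against 467 cells) it had 34 against 3 UMIs, a log2 ratio of 4.22 [2.55 to 6.57]. Cdkn2d was at 46.4 against 19.7 CPM in WT (1.24 [0.75 to 1.74]) and 59.8 against 16.6 CPM in KO (1.85 [1.46 to 2.25]). Cdkn1a was lower in the cells with G2/M transcripts, at 46.4 against 92.5 CPM in WT (−0.99 [−1.36 to −0.64]) and 49.0 against 89.8 CPM in KO (−0.87 [−1.16 to −0.60]). The Cdkn1c difference was smaller than in stroma-like cells, at −0.17 in WT and −0.27 in KO. Germ marker levels were alike on both sides of these comparisons, at 134 against 170 CPM in WT and 197 against 223 CPM in KO epithelium-like cells. Cells with 3 or more had more UMIs (medians of 19003 against 15914 in WT epithelium-like and 12223 against 9009 in WT stroma-like cells), and CPM is scaled to the total.

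**Figure D5:**
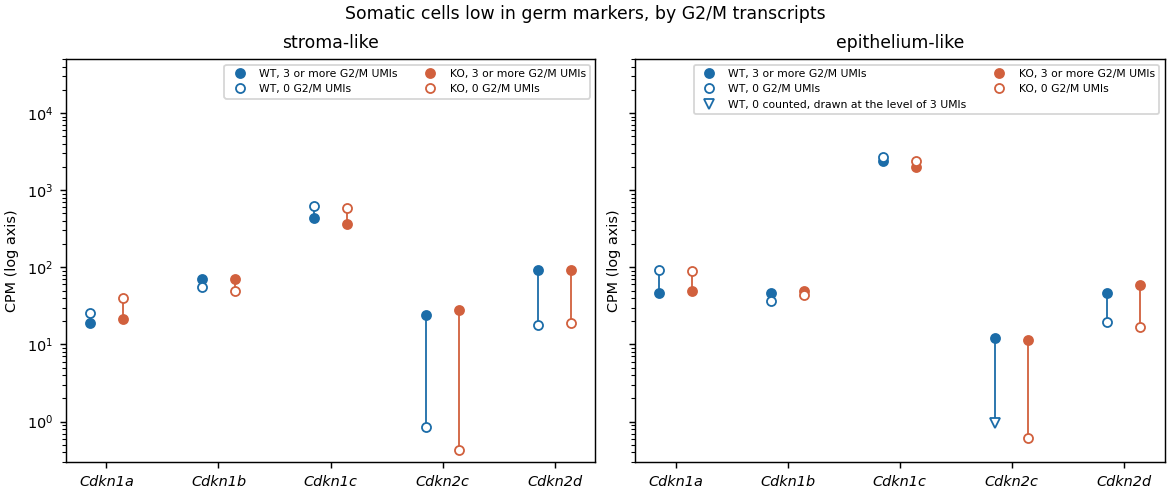
CPM (log axis) of 5 CDK inhibitor genes in stroma-like and epithelium-like cells low in germ markers, for cells with 3 or more G2/M UMIs (filled) and with 0 (open), in WT and KO; the triangle marks a count of 0 drawn at the level of 3 UMIs. Cdkn2c and Cdkn2d are higher in the filled points of each library (91.9 against 18.0 CPM for Cdkn2d in WT stroma-like cells), and Cdkn1a and Cdkn1c are lower.

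A finer clustering divided stroma-like cells into 3 clusters. It did not use the score, but G2/M genes were not left out of it, so this division is not independent of the score. A stroma-like cluster of 364 cells with Mki67 at 483 CPM in WT held Cdkn2c at 31.6 CPM in WT and 33.2 CPM in KO and Cdkn2d at 109 and 107 CPM. The main stroma-like cluster of that clustering (1962 cells) held Cdkn2c at 1.18 and 1.46 CPM and Cdkn2d at 22.2 and 20.1 CPM. Cdkn1c was at 374 and 337 CPM in the smaller cluster and 587 and 547 CPM in the larger. The third cluster (373 cells) had doublet calls in 53.6% of WT and 68.8% of KO cells, and held Cdkn2c at 3.57 and 6.01 CPM and Cdkn2d at 16.1 and 21.8 CPM.

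Within pregranulosa-like cells Cdkn1b and Cdkn1c were found together about as often as their separate shares give. Thinned to 3000 UMIs, 443 of 923 WT cells had both, where the product of the shares is 441, and 976 of 2025 KO cells, where it is 976. Cdkn1a and Cdkn1b were found together less often than that product, in 35 WT cells (product 47.3) and 91 KO cells (product 121). In premeiotic-like cells Cdkn1a and Cdkn1c were found together in 10 WT cells (product 6.68) and 23 KO cells (product 16.2). These are descriptions of cells of 1 library and carry no test.

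Over 17 groups (WT and KO by class or germ stage, at least 50 cells each), the genes whose log2(CPM + 1) followed each member most closely were listed by Pearson r as a description, since groups share libraries and neighbouring stages. Cdkn2a was closest to 1700013H16Rik (0.991), Stx12 (0.987) and 3830403N18Rik (0.984), all highest in premeiotic-like or meiotic-entry-like cells. Cdkn1b was closest to Ppt1 (0.980), Bag2 (0.979) and Msrb2 (0.978), highest in WT pregranulosa-like cells, and Cdkn1c to Gxylt2 (0.978), Wnt6 (0.970) and Lgals7 (0.969). Cdkn1a was closest to Slc38a1 (0.955), Agfg2 (0.95) and Gnpda1 (0.947), highest in immune-like cells. Cdkn2c was closest to Spag5 (0.953), a spindle gene, Kifc5b (0.908) and Cks2 (0.897), and Cdkn2d to Snrnp25 (0.928), Metrn (0.917) and Fam221a (0.888). Cdkn2b, with 745 UMIs in all groups, was closest to Zbtb44 (0.962), Bhlhb9 (0.958) and Ap3b2 (0.952). Between members, Cdkn1b and Cdkn1c had the highest r (0.854) and Cdkn1b and Cdkn2a the lowest (−0.823).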

How the data were processed

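Single-cell transcripts of 1 KO and 1 WT library were analysed, each group holding 1 sample as given by the genotype labels. The deposited values were UMI counts per gene and cell barcode, which the authors obtained from Cell Ranger (3.0.2, per the file headers), and the submitters' processing notes also name Seurat (version 3.2.3) and the build mm10. The gene annotation behind the counts is not given in the sources used here. Of 27998 gene identifiers, 27645 (98.7%) were matched to GENCODE annotation of GRCm38, and start windows were taken from RefSeq on GRCm38.p6.

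The filters of the study were applied to cells, with separate limits for each library: 1500 to 6500 genes and 5500 to 40000 UMIs in WT, 1200 to 5500 genes and 3000 to 30000 UMIs in KO, and under 10% mitochondrial UMIs in both. Counts scaled to 10000 per cell were log-transformed, and Leiden clustering (scanpy 1.11.5, leidenalg 0.10.2, resolution 0.5, 30 principal components, 20 neighbours, seed 1) was run on 2000 variable genes without the 7 members. A cluster took a class name (written -like) where 3 or more markers were in at least 10% of cells at 2-fold the level of the other classes. A library term in the germ clustering and a 1.25-fold limit for stages were set after the clusters had been seen. No deposited annotation was used, and these rebuilt names may differ from those of the study. Doublets were kept in the main values; Scrublet with an expected rate of 8% served as an alternative.

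UMIs were summed per class and library and given as CPM with exact Poisson intervals, ratios with exact conditional intervals and shares with Clopper-Pearson intervals (scipy 1.17.1). Cells are not replicates, so nothing was tested. Sums of cells ranged from 202483 UMIs in the smallest class to 121988084 in KO germ-like cells, which sets the precision of each CPM. A gene counted as called when it had at least 100 UMIs and passed the size limit, 0.5 for genotype and 1 for class and stage. All 7 members are named, with the 3 genes most like each and the highest and lowest gene of each pathway list, and other genes named as cluster labels or beside a result were chosen after their values were seen. The members and lists were chosen with earlier results of these data known. Alternatives covered cell limits, doublets, scaling, thinning, clustering and size limits. The counting was tested on simulated data.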

Additional observations from a re-analysis of the deposited data

How the results depend on the processing

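No paired analysis was possible because each group is 1 library. For the same reason no library could be left out. Of the counts of members past a limit and the Cdkn2a ratio at meiotic entry, 150 alternative values stayed near the reported ones and 23 did not. For KO against WT, the count in pregranulosa-like cells was 0 without Scrublet doublets, without cells holding transcripts of another class, without either, after thinning to 3000 UMIs and at a ln difference of 0.25, and 2 with no UMI minimum (Cdkn2a and Cdkn2c). Without cells holding transcripts of another class, or without either, Cdkn2a had 42 and 12 UMIs. It was then under the UMI minimum and not counted, at a ratio of 1.35. In stroma-like cells it was 0 at the ln limit and at 2 times the size limit and 2 after thinning (Cdkn1a and Cdkn2a), and in epithelium-like cells 1 under common cell limits (Cdkn2a) and 1 with no minimum (Cdkn2b). Stroma-like against germ-like cells gave 3 at the ln limit and 2 at 2 times the size limit. Meiotic entry against premeiotic-like cells gave 1 at the stricter size limit (Cdkn1a). Recombination-like against meiotic-entry-like cells gave 1 (Cdkn2a) under common limits, thinning, means over cells and totals without mitochondrial, ribosomal and haemoglobin genes, and 0 at the stricter size limit. Late prophase against recombination gave 1 after thinning (Cdkn2a), 1 with no library term (Cdkn1b) and 0 at the stricter size limit. The Cdkn2a ratio at meiotic entry was 1.84 with median-ratio scaling. Of the ratios past a size limit, those that reversed were of Cdkn2a: KO over WT in pregranulosa-like cells was −0.15 without doublets, and its ratio between cells with and without G2/M transcripts, in cells low in germ markers, was −0.28 in KO epithelium-like, −0.76 in KO stroma-like and −0.52 in WT stroma-like cells. Ratios under a limit or on few UMIs also changed sign, such as Cdkn2a in epithelium-like (0.42 to −0.25) and Cdkn2c in pregranulosa-like cells (0.82 to −0.18), KO over WT without doublets, Cdkn1b from meiotic entry to recombination after thinning (−0.56 to 1.07), and Cdkn1b in the G2/M split of KO stroma-like cells (−0.44 to 0.52 in cells low in germ markers). Cdkn1b in germ-like cells, KO over WT, went from −0.29 to −0.52 with the unnamed cluster left out and the KO stages weighted as in WT, past the limit of 0.5. Leaving out the unnamed cluster alone made up most of that move, as given above. Beyond that, the cause of these shifts was not tested. The germ-low selection, the stage weighting, the clustering without library term and the exclusion of the unnamed cluster and shared barcodes were chosen after seeing the data. Depth limits Cdkn2b in the soma, Cdkn2c in pregranulosa-like cells and Cdkn1b and Cdkn2b in the germ stages.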
